A study of Mus musculus with 8 samples.

Results

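A list of 43 genes of macrophages, dendritic cells and antigen presentation was read in whole mouse kidney. They were chosen by gene symbol, and 42 of the 43 had a probe set that named the gene alone, out of 19936 genes read in this way. The exception, H2-DMb1, shares its probe set with H2-DMb2 and was left out. Each of the 42 had 1 such probe set.

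The samples were 8 female mice of a mixed C57BL/6 - SV127 background, with 1 array each. The arrays of 4 mice are labelled mutant (genotype Pax8-rtTA;LC-1;Vhl-floxed) and those of 4 littermates are labelled control, a genotype whose alleles are not spelled out. In the Pax8-rtTA;LC-1 system doxycycline switches on the Cre recombinase in tubule cells of the kidney, where it deletes the floxed part of Vhl. The Vhl protein targets hypoxia-inducible factors for destruction. Both groups were given doxycycline water (0.2 mg/ml, with 5% sucrose) from 3 weeks of age and for 2 weeks, then normal water for 1 week, and their kidneys were taken at 6 weeks of age. All values are the authors' log2 expression values. Log2 differences subtract the mean of the control label from that of the mutant label.

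Macrophages and dendritic cells lie between the kidney tubules, take up debris and foreign material, and show peptides from it to T cells on major histocompatibility complex (MHC) class II molecules. MHC class II alpha and beta chains assemble on the invariant chain (Cd74), lysosomal proteases trim that chain, and H2-DM helps to load the peptide. Transcription of the genes for the class II chains, Cd74 and H2-DM depends on the co-activator Ciita. The Cre system is directed at tubule cells, whereas nearly all of the listed genes are typically expressed by leukocytes, although some, such as Lgmn, are also expressed by tubule cells. Which cells the values came from was not tested. In RNA of a whole organ, fewer cells of a type and less RNA per cell cannot be told apart.

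Array medians lay between 7.55 and 7.58, and arrays of the same label correlated at 0.992 to 0.997 over all genes, those of different labels at 0.987 to 0.993. Kidney epithelium markers averaged 12.2 to 12.3 on the arrays labelled mutant and 12.1 on those labelled control. Vhl itself was higher in the arrays labelled mutant than in those labelled control (8.25, 8.32, 8.46 and 8.33, against 8.01, 7.99, 7.96 and 8.22), by 0.29 on the log2 scale (limma adjusted p = 0.0386, and 0.0558 with the replicate number as a block). The Vhl call depended on the arrays kept: with 1 array left out, its limma adjusted p ran from 0.0128 to 0.114. It was also lost when a pair of replicates labelled mutant was dropped, at 0.0661 (replicates 1 and 2) and 0.123 (replicates 3 and 4). Which part of the transcript that probe set reads is not given in the sources used here. Its level therefore cannot tell whether the floxed part was deleted. The groups are called by their labels, the arrays labelled mutant and the arrays labelled control, with no direction of Vhl loss drawn from them. For brevity, mutant array 1 to 4 and control array 1 to 4 stand for the labelled arrays by their replicate numbers.

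None of the 42 genes passed the test between the labelled groups, while the arrays labelled mutant differed widely among themselves: mutant arrays 1 and 2 read high and mutant arrays 3 and 4 read low. The mean over the 42 genes was 8.50, 8.30, 7.78 and 7.81 on mutant arrays 1 to 4, against 8.19, 8.28, 8.21 and 8.09 on control arrays 1 to 4. Mutant arrays 1 and 2 lay above all control arrays and mutant arrays 3 and 4 below all of them. In the test across all genes (limma, Benjamini-Hochberg adjusted p under 0.05), 0 of 42 rose and 0 fell, whereas 1442 of 19936 genes (7.23%) passed, with 2.59% of all genes higher and 4.64% lower under the mutant label. At an unadjusted p under 0.05 the count was 4 of the 42 (Itgam, Cd53, Cd68 and Lgmn), against 21.8% of all genes. With the replicate number as a block, Cd68 and Itgam were called lower and 0 of the 42 higher. In that fit 5.27% of all genes were called lower. The log2 difference was above 0 in 15 and below 0 in 27 of the 42 genes, with a median of -0.09, and that of all genes was 0.03.

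**Figure D1:**
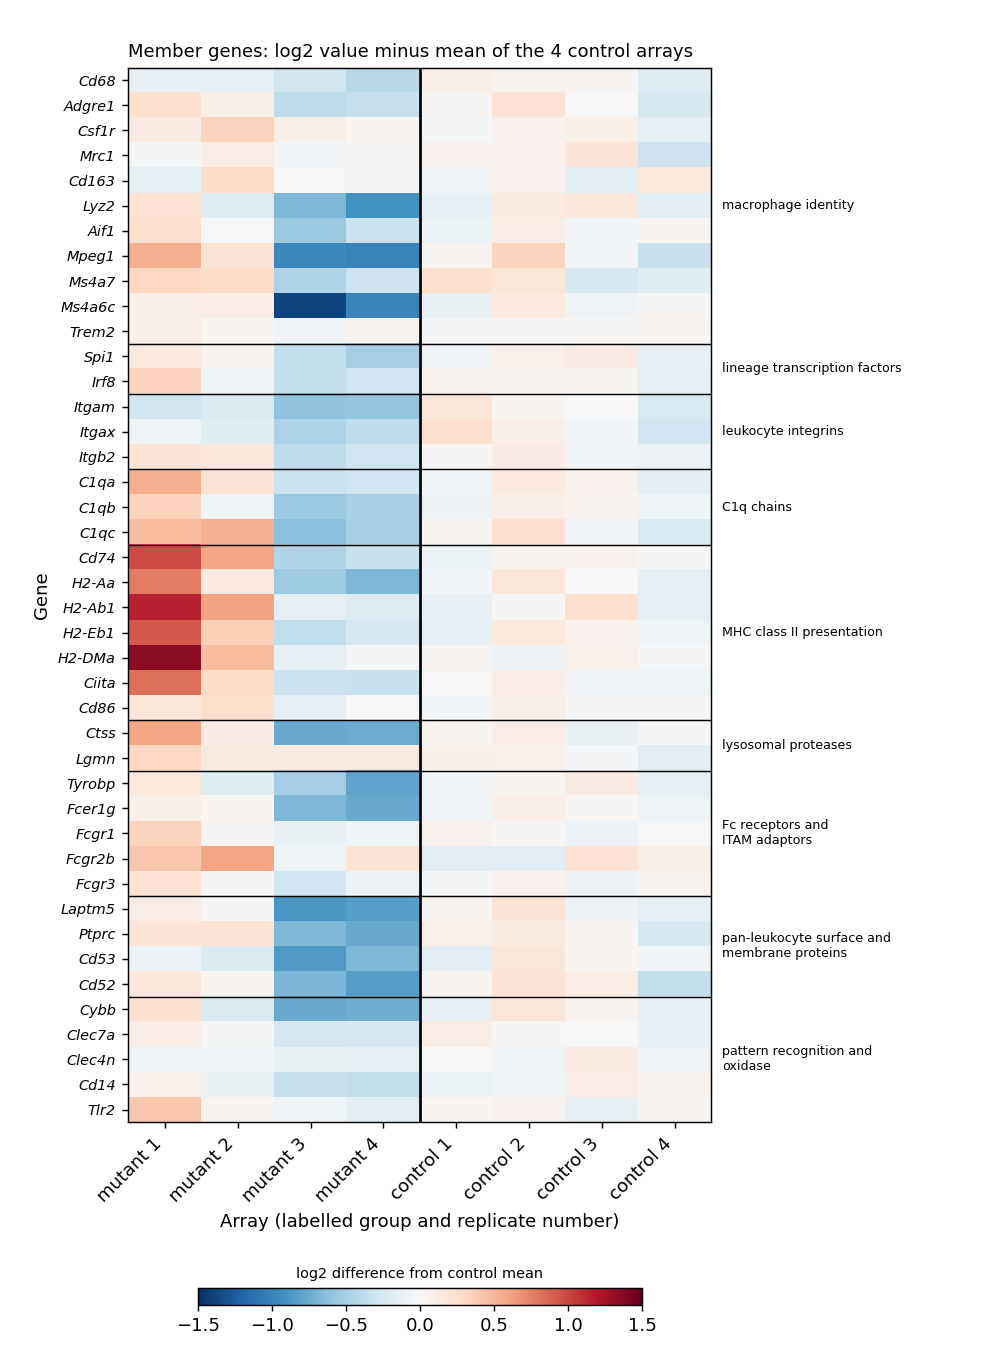
Colour gives each gene's log2 value on an array minus the mean of the 4 control arrays, for 42 genes (rows, grouped by role) on the 4 arrays labelled mutant (left) and the 4 labelled control (right). Red fills most of mutant array 1 and the MHC class II rows of mutant array 2, and blue fills most of mutant arrays 3 and 4, while the control columns stay pale.

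The split within the arrays labelled mutant ran through nearly every gene. In 38 of the 42 both mutant arrays 1 and 2 lay above both mutant arrays 3 and 4, an order that 31.3% of all genes showed, and the reverse order occurred in 0 of the 42 and in 20.8% of all genes. Mrc1, Cd163, Trem2 and Lgmn were the 4 without it. Mutant array 1 was the highest of the 8 arrays in 25 of the 42 (18.9% of all genes), and mutant array 3 the lowest in 23 (10.6%). In 32 of the 42 both mutant arrays 3 and 4 lay below all 4 control arrays (14.2% of all genes), and in 15 both mutant arrays 1 and 2 lay above all of them (23.7%). Both held at once in 10 of the 42 genes, against 0.823% of all genes. These orders are given as descriptions and without a test, since the separation of mutant arrays 1 and 2 from 3 and 4 was known from these same data.

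The spread within each label differed accordingly. The SD over the 4 arrays labelled mutant had a median of 0.362 over the 42 genes, and that over the 4 arrays labelled control 0.114; over all genes the medians were 0.101 and 0.0914. The SD was larger among the arrays labelled mutant in 38 of the 42 genes, as it was in 56.4% of all genes. The control arrays had a weaker order of their own, with control arrays 1 and 2 above control arrays 3 and 4 in 16 of the 42 genes (16.6% of all genes) and control array 4 the lowest on average.

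The MHC class II genes stood furthest above the control arrays on mutant arrays 1 and 2. Their mean over 7 measured genes (Cd74, H2-Aa, H2-Ab1, H2-Eb1, H2-DMa, Ciita and Cd86) was 9.97, 9.47, 8.79 and 8.83 on mutant arrays 1 to 4, against 9.03, 9.16, 9.15 and 9.02 on control arrays 1 to 4. In all 7, mutant arrays 1 and 2 lay above mutant arrays 3 and 4, and in 6 of the 7 mutant array 1 was the highest of the 8 arrays. The promoters of the chain genes are known for a conserved pair of elements, the X box and the Y box, through which Ciita acts. The 160 bases before the start of H2-Aa and of H2-Eb1 are shown because both class II chain genes carry the pair. Their values by array share the order of mutant arrays 1 and 2 above 3 and 4. They are from RefSeq on GRCm38.p6, 5′ to 3′, from chr17:34287824-34287983 on the minus strand for H2-Aa and chr17:34305707-34305866 on the plus strand for H2-Eb1. Capitals mark the letters GCAAC, found in X boxes, and CTGATTGG, the Y box.
H2-Aa: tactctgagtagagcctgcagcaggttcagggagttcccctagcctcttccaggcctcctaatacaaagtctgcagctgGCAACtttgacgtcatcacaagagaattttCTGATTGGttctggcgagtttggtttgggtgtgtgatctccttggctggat
H2-Eb1: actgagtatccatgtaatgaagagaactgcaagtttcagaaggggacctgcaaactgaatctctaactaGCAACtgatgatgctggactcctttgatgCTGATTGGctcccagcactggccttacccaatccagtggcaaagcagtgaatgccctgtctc

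In H2-Aa the Y box letters begin 51 bases before the start and those of the X box 81 bases before it, 30 bases apart. In H2-Eb1 they begin 62 and 91 bases before the start, 29 bases apart. Both motifs were searched on both strands of the 250 bases before the first listed start of 27025 genes. CTGATTGG was found in 4.07% of them and GCAAC in 30.1%, and GCAAC up to 40 bases before CTGATTGG on the same strand in 33 genes (0.122%). Of the 43 listed genes 30 had an entry, and 2 of the 30, H2-Aa and H2-Eb1, held the pair. H2-DMa and H2-DMb1 also had an entry and held no such pair of letters in this window.

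Cd74, the invariant chain that occupies the groove of new class II molecules, read 12.12, 11.73, 10.69 and 10.80 on mutant arrays 1 to 4, against 11.04, 11.20, 11.21 and 11.12 on control arrays 1 to 4. Mutant arrays 1 and 2 lay above and mutant arrays 3 and 4 below every control array, so that the group means, 11.3 ± 0.703 and 11.1 ± 0.0764 (SD, n = 4 each), differed by less than the spread (log2 difference 0.20, limma adjusted p = 0.713). H2-Eb1, a class II beta chain, read 10.95, 10.38, 9.66 and 9.79 on mutant arrays 1 to 4, against 9.88, 10.19, 10.09 and 9.97 on control arrays 1 to 4. It showed the same order as Cd74 (log2 difference 0.16, limma adjusted p = 0.725). Ciita, the co-activator, read 8.62, 8.06, 7.46 and 7.45 on mutant arrays 1 to 4, against 7.80, 7.90, 7.75 and 7.71 on control arrays 1 to 4, again with the control arrays between the mutant pairs (log2 difference 0.11, limma adjusted p = 0.808).

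H2-Ab1 and H2-DMa differed from these in that mutant arrays 3 and 4 came close to the control arrays. H2-Ab1, a beta chain, read 10.54, 9.99, 9.24 and 9.20 on mutant arrays 1 to 4, against 9.27, 9.40, 9.63 and 9.25 on control arrays 1 to 4. H2-DMa, a chain of the peptide-loading molecule H2-DM, read 10.11, 9.22, 8.63 and 8.74 on mutant arrays 1 to 4, against 8.80, 8.67, 8.84 and 8.73 on control arrays 1 to 4. Mutant array 1 stood furthest out in H2-DMa, where the groups overlapped (log2 difference 0.41, limma adjusted p = 0.398), and H2-Ab1 had a log2 difference of 0.35 (limma adjusted p = 0.469). In H2-Aa, an alpha chain, mutant array 1 was alone above the control arrays, with 10.93, 10.31, 9.62 and 9.49 on mutant arrays 1 to 4, against 10.12, 10.33, 10.15 and 10.03 on control arrays 1 to 4 (log2 difference -0.07, limma adjusted p = 0.899). Cd86, a co-stimulatory ligand for T cells, had the narrowest range of the 7, 6.23 to 6.62 on the arrays labelled mutant and 6.32 to 6.45 on those labelled control.

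**Figure D2:**
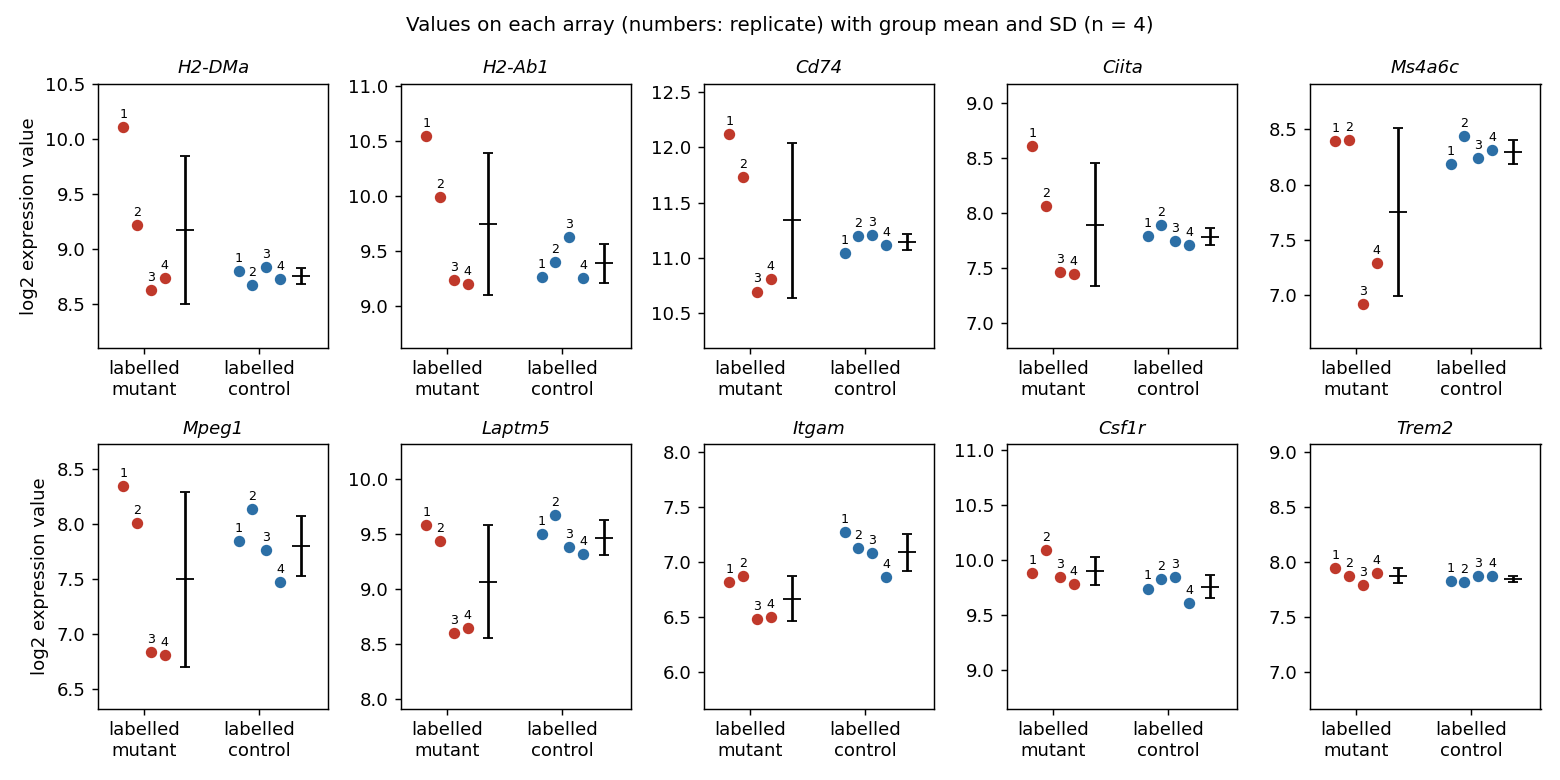
Points give the log2 value of 10 genes on each array, with its replicate number, for the arrays labelled mutant (left, red) and labelled control (right, blue); bars give the mean and SD of 4 arrays, and every panel spans the same range of log2 units. In H2-DMa, H2-Ab1, Cd74 and Ciita mutant arrays 1 and 2 stand above the rest, in Ms4a6c, Mpeg1 and Laptm5 mutant arrays 3 and 4 stand below it, and Csf1r and Trem2 vary little.

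The lysosomal protease genes split from each other. Ctss, cathepsin S, which cleaves the invariant chain in antigen-presenting cells, read 8.88, 8.41, 7.53 and 7.54 on mutant arrays 1 to 4, against 8.31, 8.40, 8.17 and 8.26 on control arrays 1 to 4. It followed the class II genes, with mutant arrays 1 and 2 above and mutant arrays 3 and 4 below all control arrays (log2 difference -0.20, limma adjusted p = 0.703). Lgmn, legumain, an asparaginyl protease that kidney tubule cells also express, read 12.72, 12.54, 12.55 and 12.55 on mutant arrays 1 to 4, against 12.50, 12.49, 12.40 and 12.26 on control arrays 1 to 4. It was the 1 gene of the 42 whose groups did not overlap (all mutant above all control arrays in 6.57% of all genes), and it did not pass (log2 difference 0.18, limma adjusted p = 0.182).

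The macrophage identity genes fell into those with the split and those without it. The largest ranges were those of Mpeg1, the pore-forming perforin-2 of macrophages, and Ms4a6c, a membrane protein of the MS4A family. Mpeg1 read 8.34, 8.01, 6.84 and 6.81 on mutant arrays 1 to 4, against 7.84, 8.14, 7.77 and 7.47 on control arrays 1 to 4 (log2 difference -0.31, limma adjusted p = 0.627). Ms4a6c read 8.39, 8.41, 6.92 and 7.29 on mutant arrays 1 to 4, against 8.19, 8.44, 8.24 and 8.32 on control arrays 1 to 4 (log2 difference -0.54, limma adjusted p = 0.336). In both genes mutant arrays 3 and 4 lay below every control array, and the means of mutant arrays 1 and 2 were 2.55-fold (Mpeg1) and 2.46-fold (Ms4a6c) those of mutant arrays 3 and 4. Lyz2, lysozyme, read 9.49, 9.10, 8.60 and 8.37 on mutant arrays 1 to 4, against 9.13, 9.41, 9.44 and 9.12 on control arrays 1 to 4, with the same low pair (log2 difference -0.39, limma adjusted p = 0.325).

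Adgre1, an adhesion receptor used as the standard surface marker of mouse macrophages, read 7.56, 7.41, 6.94 and 6.98 on mutant arrays 1 to 4, against 7.34, 7.54, 7.32 and 7.09 on control arrays 1 to 4, and had a log2 difference of -0.10 (limma adjusted p = 0.724). Csf1r, the receptor for the macrophage growth factor CSF1, ran with less of a split, at 9.88, 10.08, 9.84 and 9.78 on mutant arrays 1 to 4, against 9.74, 9.82, 9.84 and 9.61 on control arrays 1 to 4 (log2 difference 0.14, limma adjusted p = 0.321). Mutant arrays 3 and 4 stayed within the control range for Csf1r, unlike for Adgre1. The scavenger receptor genes Mrc1 and Cd163 and the lipid-sensing receptor gene Trem2 had no such split and log2 differences of 0.02 to 0.03. Cd163 and Ms4a7 read below the lowest lower quartile of any array (6.21) in both group means, as did Clec4n, and a change in such dim probe sets may be understated. Cd68, a lysosomal membrane protein of macrophages, read 8.32, 8.31, 8.17 and 8.02 on mutant arrays 1 to 4, against 8.54, 8.50, 8.48 and 8.25 on control arrays 1 to 4. All mutant arrays lay under control arrays 1 to 3, and control array 4 lay among them. The difference did not pass (log2 difference -0.24, limma adjusted p = 0.143), though with the replicate number as a block it did (limma adjusted p = 0.0334; 5.27% of all genes were called lower in that fit). Aif1 and Ms4a7 had mutant arrays 3 and 4 lowest of the 8.

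The transcription factor genes followed the genes with the split. Spi1, which encodes PU.1, the factor required for macrophage development, read 7.83, 7.74, 7.32 and 7.18 on mutant arrays 1 to 4, against 7.62, 7.75, 7.80 and 7.55 on control arrays 1 to 4. Irf8, which encodes a factor of monocyte and dendritic cell development, read 8.79, 8.37, 8.09 and 8.15 on mutant arrays 1 to 4, against 8.50, 8.50, 8.49 and 8.32 on control arrays 1 to 4. Mutant arrays 3 and 4 lay below the control arrays in both, mutant array 1 lay above them, and neither passed (log2 differences -0.16 for Spi1 and -0.10 for Irf8).

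Itgam came nearest to the threshold. It encodes CD11b, the alpha chain that pairs with Itgb2 on myeloid cells, and read 6.82, 6.87, 6.49 and 6.50 on mutant arrays 1 to 4, against 7.27, 7.13, 7.08 and 6.86 on control arrays 1 to 4. Group means were 6.67 ± 0.204 and 7.09 ± 0.170 (SD, n = 4 each), a 1.34-fold lower level in the arrays labelled mutant that missed the threshold (log2 difference -0.42, limma adjusted p = 0.0530). It passed with the replicate number as a block (0.0148), after quantile normalization (0.0326) and without mutant array 2 (0.0461) or control array 4 (0.0304), and over the alternatives that kept its probe set its limma adjusted p ran from 0.0148 to 0.176. Itgax, which encodes CD11c of dendritic cells, read 6.46 to 6.87 on the arrays labelled mutant and 6.63 to 7.16 on those labelled control (log2 difference -0.27, limma adjusted p = 0.229). Their partner Itgb2 had the wider split, at 8.04, 8.01, 7.46 and 7.54 on mutant arrays 1 to 4, against 7.85, 7.96, 7.79 and 7.75 on control arrays 1 to 4.

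The 3 chains of complement C1q, which macrophages secrete and which start the classical pathway, moved together. C1qc read 9.52, 9.60, 8.42 and 8.54 on mutant arrays 1 to 4, against 9.08, 9.29, 9.02 and 8.82 on control arrays 1 to 4, above all control arrays in mutant arrays 1 and 2 and below all of them in 3 and 4 (log2 difference -0.03, limma adjusted p = 0.956). C1qa showed the same order, and in C1qb mutant array 2 lay within the control range. The 3-chain mean was 9.32, 9.10, 8.37 and 8.43 on mutant arrays 1 to 4, against 8.83, 9.02, 8.89 and 8.72 on control arrays 1 to 4.

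**Figure D3:**
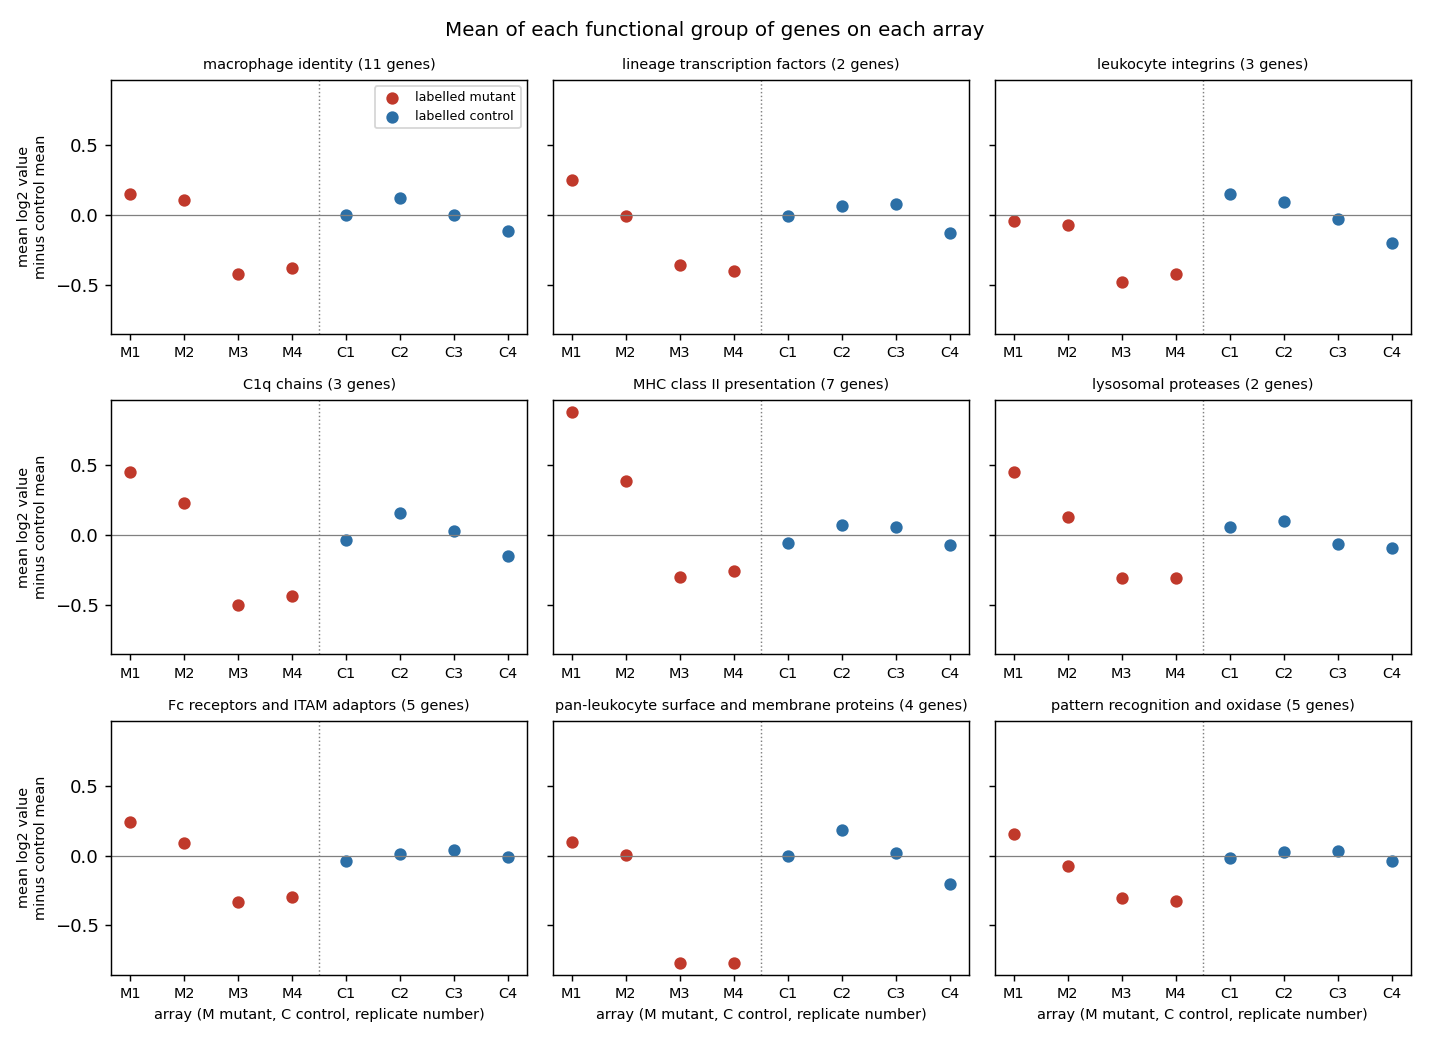
Each panel gives the mean log2 value of 1 group of genes on each array minus the mean of the 4 control arrays, with arrays labelled mutant at the left and labelled control at the right. In all 9 groups mutant arrays 3 and 4 lie below the 4 control arrays, and mutant array 1 reaches its highest point in MHC class II presentation.

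Receptors for the constant region of antibodies were uneven. Tyrobp and Fcer1g encode small adaptor chains that pass activating signals into the cell. Tyrobp read 8.66, 8.31, 7.99 and 7.71 on mutant arrays 1 to 4, against 8.46, 8.55, 8.63 and 8.37 on control arrays 1 to 4. Fcer1g read 8.34, 8.29, 7.59 and 7.50 on mutant arrays 1 to 4, against 8.21, 8.36, 8.28 and 8.18 on control arrays 1 to 4. Both had mutant arrays 3 and 4 below every control array and log2 differences of -0.33. Fcgr2b, the inhibitory Fc receptor, which endothelial cells also express, read 9.80, 9.997, 9.33 and 9.61 on mutant arrays 1 to 4, against 9.25, 9.25, 9.62 and 9.50 on control arrays 1 to 4. Here mutant arrays 1 and 2 lay above the control range and mutant arrays 3 and 4 within it (log2 difference 0.28, limma adjusted p = 0.274). The activating receptors Fcgr1 and Fcgr3 had log2 differences of 0.05 and -0.04.

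The genes expressed across leukocytes had the lowest median of the 9 groups when mutant arrays 3 and 4 alone were set against the control arrays (log2 difference -0.76). Ptprc, the CD45 phosphatase, read 8.26, 8.27, 7.39 and 7.31 on mutant arrays 1 to 4, against 8.14, 8.20, 8.09 and 7.82 on control arrays 1 to 4 (log2 difference -0.25, limma adjusted p = 0.537). Laptm5, a lysosomal membrane protein of blood cells, read 9.59, 9.44, 8.60 and 8.65 on mutant arrays 1 to 4, against 9.50, 9.68, 9.38 and 9.32 on control arrays 1 to 4 (log2 difference -0.40, limma adjusted p = 0.314). Mutant arrays 1 and 2 lay above all control arrays for Ptprc and within their range for Laptm5. Cd53, a tetraspanin, read 8.09, 7.97, 7.33 and 7.50 on mutant arrays 1 to 4, against 8.02, 8.37, 8.21 and 8.12 on control arrays 1 to 4. Its log2 difference of -0.46 did not pass (limma adjusted p = 0.128), although it did without mutant array 1 (0.0473). Cd52, a short surface glycoprotein, had the same low pair, with 7.56 and 7.42 on mutant arrays 3 and 4 and no other array under 7.89. The mean of the 4 genes was 8.59, 8.49, 7.72 and 7.72 on mutant arrays 1 to 4, against 8.49, 8.67, 8.51 and 8.29 on control arrays 1 to 4.

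The last group held Cybb and receptors for microbial patterns, whose ranges were smaller than that of Cybb. Cybb, the catalytic subunit of the phagocyte NADPH oxidase, read 9.16, 8.71, 8.17 and 8.19 on mutant arrays 1 to 4, against 8.81, 9.11, 8.98 and 8.80 on control arrays 1 to 4. It did not pass (log2 difference -0.37, limma adjusted p = 0.315), but did without mutant array 1 (0.0414). Tlr2, a sensor of bacterial lipoproteins, read 7.68 to 8.25 on the arrays labelled mutant and 7.70 to 7.92 on those labelled control. Cd14, a co-receptor for endotoxin, read 7.05 to 7.48 on the arrays labelled mutant and 7.31 to 7.51 on those labelled control. The fungal sensor Clec7a read 6.34 to 6.71 on the arrays labelled mutant and 6.47 to 6.71 on those labelled control, so that these 3 genes overlapped between the labels. Their log2 differences were 0.05 for Tlr2, -0.18 for Cd14 and -0.10 for Clec7a.

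Because mutant arrays 1 and 2 lay on one side and 3 and 4 on the other, the test was also run without each pair. Without mutant arrays 1 and 2, 22 of the 42 genes were called lower and 0 higher, where 3.24% of all genes were called lower and 1.59% higher. The lower genes included Ms4a6c (2.29-fold, limma adjusted p = 0.00206), Ctss (1.68-fold, 0.00265), Fcer1g (1.64-fold, 0.00274), Laptm5 (1.79-fold, 0.00531) and Mpeg1 (1.98-fold, 0.0132). All 4 pan-leukocyte genes were among them, as were 3 of the 7 MHC class II genes, namely Cd74 (1.31-fold), H2-Aa (1.52-fold) and Ciita (1.26-fold). The median log2 difference of the 42 was -0.35 there, and that of all genes 0.01.

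Without mutant arrays 3 and 4, 7 of the 42 were called higher and 0 lower, where 3.39% of all genes were called higher and 4.44% lower. Of the 7, 5 belonged to MHC class II presentation. They were Cd74 (1.73-fold, limma adjusted p = 0.00806), H2-Ab1 (1.84-fold, 0.0210), H2-DMa (1.87-fold, 0.0375), H2-Eb1 (1.55-fold, 0.0439) and Ciita (1.46-fold, 0.0496). The others were C1qc (1.42-fold, 0.0422) and Fcgr2b (1.41-fold, 0.0460). Cd74, Ciita and C1qc were called in both fits, in opposite directions. The median log2 difference of the 42 was 0.14 and that of all genes 0.04. Each of these fits rests on 2 arrays labelled mutant, shares the same 4 control arrays with the other and was chosen with the split already known, so these calls describe the 2 pairs and are no independent support for it.

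**Figure D4:**
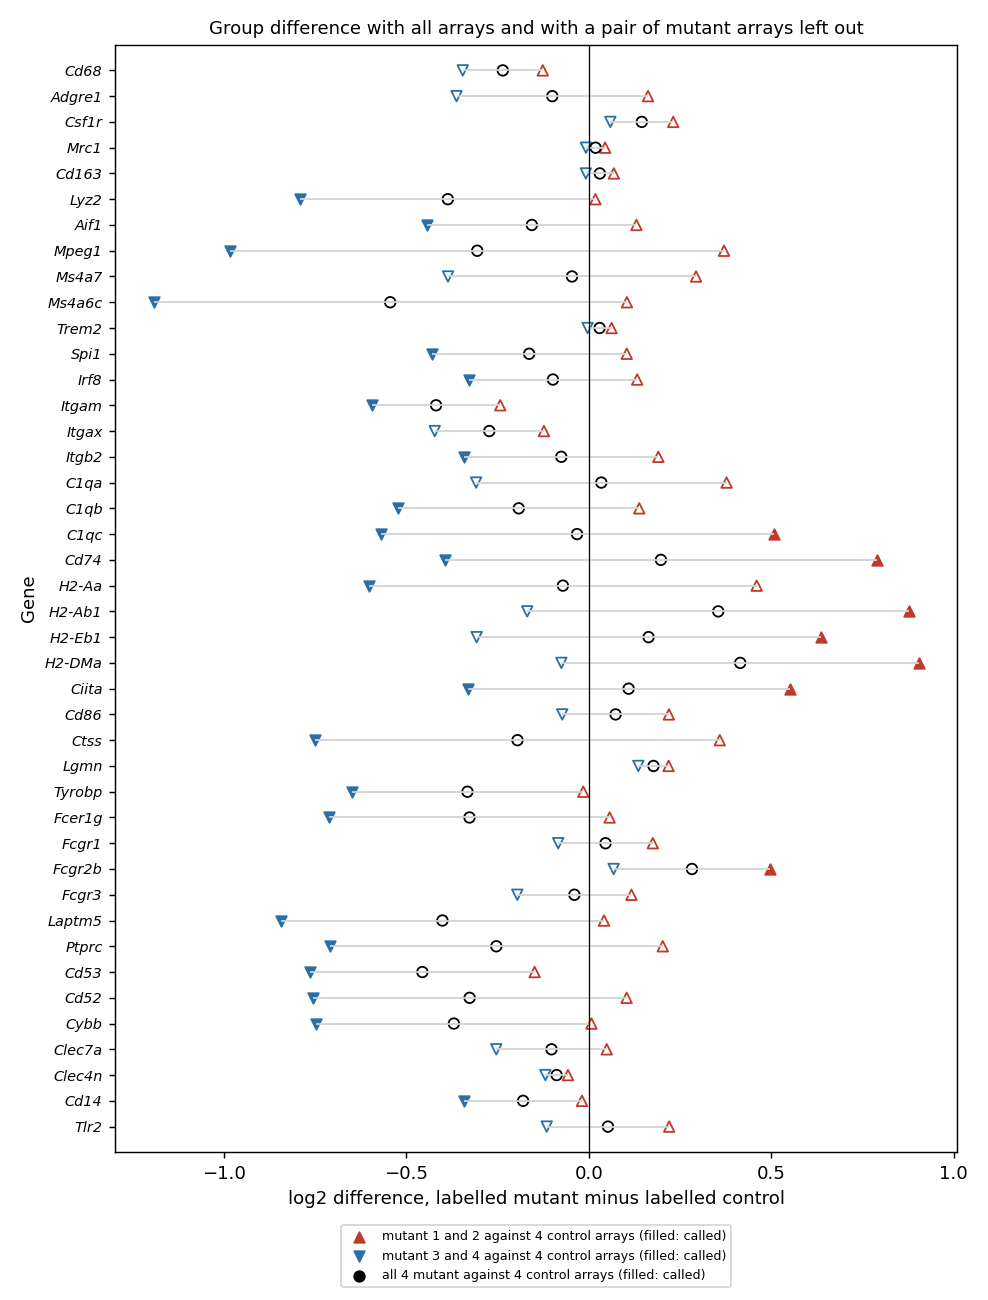
For each of the 42 genes, symbols give the log2 difference, labelled mutant minus labelled control, with all arrays (circles), without mutant arrays 3 and 4 (upward triangles) and without mutant arrays 1 and 2 (downward triangles); filled symbols passed a limma adjusted p of 0.05. No circle is filled, 22 downward triangles are filled on the negative side and 7 upward triangles on the positive side.

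The other genes of antigen presentation did not pass either. Of 23 measured, 0 rose and 0 fell in the limma test (2 at an unadjusted p under 0.05), with a median log2 difference of 0.01. The largest difference was that of Cd1d1, which presents lipids to natural killer T cells (log2 difference -0.42, limma adjusted p = 0.0669, and 0.0253 with the replicate number as a block). In 14 of the 23 mutant array 1 was the highest of the 8 arrays. Genes of peptide supply to MHC class I were among those, of which 2 were chosen after their values were seen. Psmb8, an immunoproteasome subunit, read 8.59, 7.61, 6.96 and 7.06 on mutant arrays 1 to 4, against 7.46, 7.52, 7.40 and 7.40 on control arrays 1 to 4. Tap1, a peptide transporter chain, read 9.12, 8.62, 7.99 and 7.67 on mutant arrays 1 to 4, against 8.26, 8.37, 8.14 and 8.0 on control arrays 1 to 4. In these 2 genes the order was that of Cd74, with the control arrays between the mutant pairs. Tap2, Tapbp, Psmb9 and Psmb10, also chosen after their values were seen, did not show it in full. Their mutant arrays 1 and 2 lay above mutant arrays 3 and 4. Within the control range, however, lay mutant array 3 for Tap2 (8.48) and mutant arrays 3 and 4 for Tapbp (10.01 and 10.09). The same held for mutant array 4 in Psmb9 (8.51) and mutant array 2 in Psmb10 (8.73).

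Dendritic cell markers held a difference that the 42 genes did not. Cd209a, a C-type lectin of the DC-SIGN family found on monocyte-derived dendritic cells in mice, read 7.54, 7.97, 7.16 and 7.39 on mutant arrays 1 to 4, against 8.67, 9.08, 8.67 and 8.80 on control arrays 1 to 4. It was lower under the mutant label, by 2.44-fold (log2 difference -1.29, limma adjusted p = 0.00147), with no overlap between the groups, and it kept its call under every alternative run (limma adjusted p from 0.000524 to 0.00877). Tcf4, a factor of plasmacytoid dendritic cells that endothelial and other cells also express, was 1.22-fold lower (limma adjusted p = 0.0305). The Tcf4 call was lost on leaving out mutant array 1, 2 or 4 or control array 1, 2 or 3 (0.0557 to 0.0918). It was also lost without mutant arrays 1 and 2 together (limma adjusted p = 0.182). These were the 2 of 14 measured markers that passed, both lower (4.64% of all genes were called lower). The list's median log2 difference was -0.03. In 10 of the 14 markers mutant arrays 1 and 2 both lay above mutant arrays 3 and 4 (31.3% of all genes).

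Among 23 measured genes of macrophage growth, recruitment and residency 1 fell (4.64% of all genes) and 0 rose (2.59%), with a median log2 difference of -0.06. It was Lyve1, a hyaluronan receptor of lymphatic vessels and some resident macrophages, 1.21-fold lower (7.27 ± 0.0648 and 7.55 ± 0.0591, SD, n = 4 each; limma adjusted p = 0.0156, and 0.104 without mutant arrays 1 and 2). Of 6 measured monocyte markers 0 passed the limma test and 2 had an unadjusted p under 0.05 (median -0.12), and the chemokine receptor gene Ccr2 had their largest difference. Ccr2 read 6.83, 6.46, 6.14 and 5.93 on mutant arrays 1 to 4, against 6.71, 6.74, 6.79 and 6.61 on control arrays 1 to 4 (log2 difference -0.37, limma adjusted p = 0.214). It had the low pair of mutant arrays 3 and 4 as well.

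Markers of other leukocytes shared the split in part. Mutant arrays 1 and 2 both lay above 3 and 4 in 11 of 14 T cell and 7 of 8 natural killer cell markers. The same held in 6 of 11 B cell and plasma cell and 8 of 13 neutrophil markers (31.3% of all genes). Both group means lay below 6.21, the lowest lower quartile of any array, in 4, 3, 3 and 5 genes of these lists, in that order. A change in such dim probe sets, Klrk1 and Cxcr2 among them, may be understated. The list mean of 14 T cell markers was 6.56, 6.72, 6.34 and 6.41 on mutant arrays 1 to 4, against 6.43 to 6.52 on the control arrays. That of 8 natural killer cell markers was 6.31, 6.38, 5.97 and 5.99 on mutant arrays 1 to 4, against 6.08 to 6.21 on the control arrays. In both lists mutant arrays 1 and 2 lay above and mutant arrays 3 and 4 below the control arrays, and 0 genes passed the limma test, with an unadjusted p under 0.05 in 2 T cell and 0 natural killer cell markers (largest differences Cd3g at -0.22 and Klrk1 at -0.14). The mean of 11 B cell and plasma cell markers was 6.98, 7.19, 6.73 and 6.77 on mutant arrays 1 to 4, against 6.67 to 6.74 on the control arrays, with 0 passing (2 at an unadjusted p under 0.05). Jchain, the joining chain of secreted antibodies, set the largest difference in that list, with 7.28, 8.60, 5.98 and 5.97 on mutant arrays 1 to 4, against 5.45, 5.38, 5.62 and 5.46 on control arrays 1 to 4 (log2 difference 1.48, limma adjusted p = 0.111). All mutant arrays lay above all control arrays for Jchain, and mutant array 2 was the highest. It was called higher without mutant arrays 1 and 2 (1.41-fold, limma adjusted p = 0.0126) and without mutant arrays 3 and 4 (5.53-fold, 0.00497), against 2.80-fold with all arrays, where it did not pass. Those 2 fits follow a split known from these same data and share the 4 control arrays. Their calls describe the pairs and are no independent support for a difference in Jchain. The 13 neutrophil markers averaged 6.41, 6.17, 6.04 and 6.09 on mutant arrays 1 to 4, against 6.00 to 6.14 on the control arrays, with 0 passing (2 at an unadjusted p under 0.05), and Cxcr2 had their largest difference (0.36). The part of these cell types in the values of the 42 genes was not tested.

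The mean values of the endothelial, epithelial and erythroid lists did not show mutant arrays 1 and 2 above and 3 and 4 below the control arrays. Of 10 endothelial markers 10 fell (4.64% of all genes) and 0 rose (2.59%), led by Kdr (log2 difference -0.90) and Cdh5 (-0.84). The mean of the 10 was 9.99, 10.09, 10.07 and 10.09 on mutant arrays 1 to 4, against 10.63 to 10.81 on the control arrays. Of 11 kidney epithelium markers 1 rose (2.59% of all genes), the water channel gene Aqp1 (log2 difference 0.29), and 0 fell (4.64%). With the replicate number as a block 3 rose, where 606 of 19936 genes rose. They were Aqp1 (limma adjusted p = 0.0257) and, chosen after their values were seen, the salt transporter genes Slc12a1 (0.0456) and Slc12a3 (0.0341). Of 6 erythroid markers 1 fell (4.64% of all genes), Alas2 (log2 difference -2.24). Among 7 mast cell markers the protease genes Cpa3 and Tpsb2 passed in opposite directions (7.23% of all genes passed). Their log2 differences were -0.55 (limma adjusted p = 0.0173) and 0.34 (0.0302, and 0.0624 with the replicate number as a block). Cpa3 was dim, with group means of 5.07 and 5.61, both below the lowest lower quartile of any array (6.21). The Cpa3 call was lost on leaving out mutant array 2 or control array 2 or 3 (0.0566 to 0.0570), and that of Tpsb2 on leaving out mutant array 1, 2 or 3, or 1 control array, whichever it was (0.0512 to 0.0860). Without mutant arrays 1 and 2 together both calls were lost (limma adjusted p = 0.107 for Cpa3 and 0.164 for Tpsb2). Without mutant arrays 3 and 4 that of Cpa3 was lost too (0.0516). The mean of the mast cell list was 6.32, 6.31, 6.23 and 6.25 on mutant arrays 1 to 4, against 6.25 to 6.31 on the control arrays, a narrow range over all 8.

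**Figure D5:**
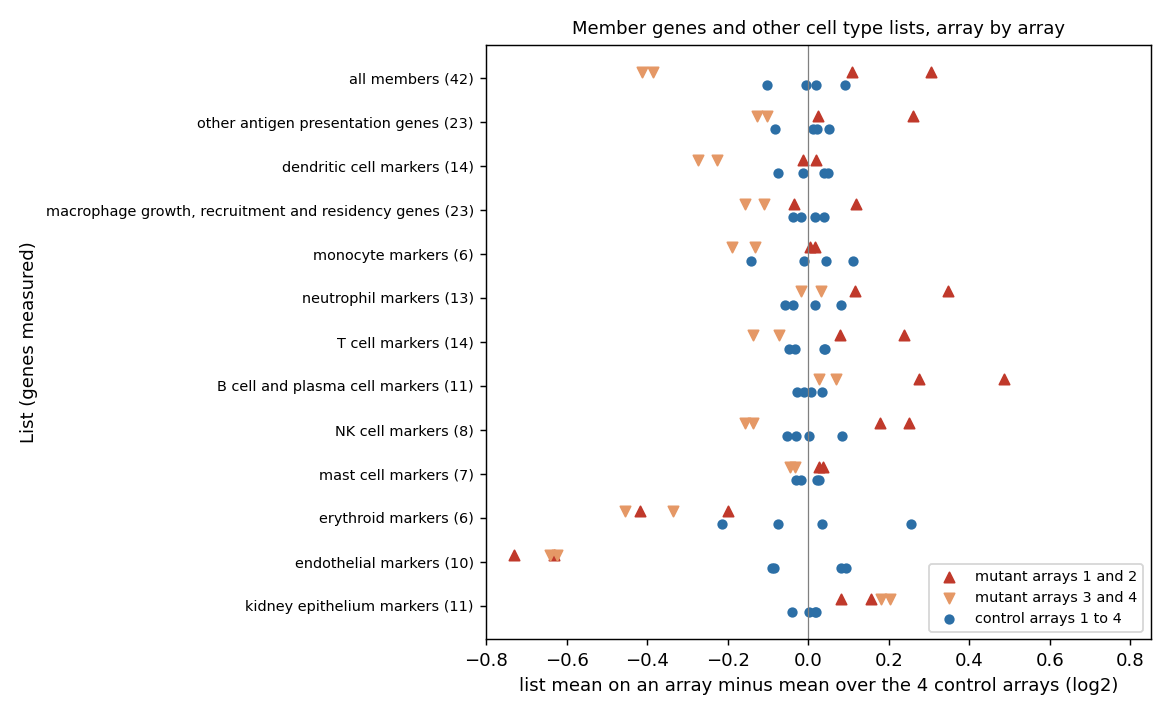
For the 42 genes and 12 other lists (rows), points give the list mean on an array minus its mean over the 4 control arrays, with mutant arrays 1 and 2 as upward triangles, mutant arrays 3 and 4 as downward triangles and control arrays as circles. The pairs of mutant arrays lie furthest apart in the 42 genes, and close together in the endothelial and mast cell lists.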

How the data were processed

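Whole-kidney total RNA was labelled with biotin and hybridized to Affymetrix mouse gene arrays, 1 per mouse, per the labels' protocols. The deposited table holds log2 values of 35556 probe sets that the authors made, ranging from 1.92 to 14.66. The submitters' processing notes name limma; background correction, summarization, normalization between arrays and genome build are not given in the sources used here. No detection call came with the values, so no probe set was called absent.

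Names came from the platform annotation, updated to GRCm38.p6 gene symbols; 21789 probe sets named 1 gene, 1621 named several and 12146 were unlisted. Each of 19936 genes was read from its brightest probe set (mean over 8 arrays). Labelled groups were compared over all genes in R 4.3.3 by limma's moderated test (limma 3.58.1, eBayes, two-sided), adjusted by Benjamini-Hochberg. A fold is 2 to the size of the log2 difference. The fit was tested on simulated data.

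The genes and lists, and the separation of mutant arrays 1 and 2 from 3 and 4, were chosen with earlier results of these data known. All listed genes may be named; from each further list the 2 called genes with the largest change were named, or the gene with the largest change, and others are marked as chosen later. Motif windows were the 250 bases before a gene's first listed start. Same-numbered arrays deviated together from their group means (correlations 0.138, 0.153, 0.295 and 0.175 over all genes), which was read as pairing by replicate number. Arrays of different numbers correlated at -0.193 (mutant array 2 with control array 3) to 0.111 (mutant array 2 with control array 1). The pairing rests on the data, not on the labels. The reported comparison has no block, and the replicate block is given beside a result where it changes a call. Alternatives were quantile normalization, median centring, the upper 60% of probe sets by mean, trended and robust eBayes, array weights, averaging the probe sets of a gene, the replicate block, all probe sets, an adjusted p of 0.01, and leaving out arrays.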

Additional observations from a re-analysis of the deposited data

Results flagged for a closer look

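Among 114 groups of 4 arrays examined, 5 held an array whose gap to its nearest neighbour exceeded Dixon's critical share of the range; chance gives about 1 in 20. For Lgmn mutant array 1 read 12.72, above the other mutant arrays at 12.54 to 12.55. For Irf8 control array 4 read 8.32, below the other control arrays at 8.49 to 8.50. Outside the 42 genes, Cxcr2 read 5.60 on mutant array 1, with the other mutant arrays at 5.01 to 5.04. Cpa3 read 5.23 on control array 1 and Tpsb2 6.96 on control array 2, each below the other control arrays.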

How the results depend on the processing

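The count of the 42 genes called was 0 as reported, 1 (Itgam) after quantile normalization, median centring, trended and robust eBayes or array weights, 2 (Cd68 and Itgam) with the replicate block, 22 without mutant arrays 1 and 2, and 7 when arrays 3 and 4 of that label were left out. Leaving out 1 array gave 0 to 2 (Cd53 and Cybb without mutant array 1; Itgam without mutant array 2 or control array 4). The count over all genes was 1657 with the replicate block, 902 to 1368 with 1 array left out (917 without mutant array 2, 903 without control array 2, 902 without control array 3) and 602 at an adjusted p of 0.01. The replicate block changed no other call among the 42 genes. No call changed among the 42 genes with the mean of probe sets or all probe sets, nor among the 33 that the upper 60% of probe sets kept, which leaves out Itgam.

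Log2 differences that changed sign were, without mutant arrays 1 and 2, Mrc1 -0.0081, Cd163 -0.0084, Trem2 -0.0035, C1qa -0.31, Cd74 -0.39, H2-Ab1 -0.17, H2-Eb1 -0.31, H2-DMa -0.0755, Ciita -0.33, Cd86 -0.0731, Fcgr1 -0.0842 and Tlr2 -0.12. Without mutant arrays 3 and 4 they were Adgre1 0.16, Lyz2 0.0178, Aif1 0.13, Mpeg1 0.37, Ms4a7 0.29, Ms4a6c 0.10, Spi1 0.10, Irf8 0.13, Itgb2 0.19, C1qb 0.14, C1qc 0.51, H2-Aa 0.46, Ctss 0.36, Fcer1g 0.0568, Fcgr3 0.12, Laptm5 0.0413, Ptprc 0.20, Cd52 0.10, Cybb 0.0070, Clec7a 0.0489, Cd3g 0.0971 and Klrk1 0.13. Array weights turned Mrc1 (-0.0095) and C1qa (-0.0421), and quantile normalization C1qc (0.0013). With 1 array left out, ranges that crossed 0 were Mrc1 -0.0870 to 0.0816, Cd163 -0.0535 to 0.0879, Ms4a7 -0.17 to 0.0915, Itgb2 -0.17 to 0.0265, C1qa -0.14 to 0.15, C1qc -0.23 to 0.17, Cd74 -0.0649 to 0.41, H2-Aa -0.35 to 0.13, H2-Eb1 -0.0880 to 0.34, Ciita -0.13 to 0.26, Fcgr1 -0.0516 to 0.10, Fcgr3 -0.13 to 0.0473 and Tlr2 -0.0651 to 0.12. None of these was called as reported, and the cause was not tested. The number of arrays limits the precision.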
